A study of Mus musculus with 264 samples.

Results

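The neurospheres described here were the 67 of the culture set called Set-B that received either no ethanol or 70 mM ethanol, out of 264 neurospheres with deposited cycle numbers. They were chosen by culture set and ethanol label and by no measured value, though with earlier results of these data known. No ethanol was given to 34 of them, 11 measured in run 1 and 23 in run 3, and 70 mM was given to 33, 11 in run 1 and 22 in run 3. All 67 were unmodified C57/Bl6 mouse cells from the dorsal telencephalon at gestational day 12.5, dispersed after pooling 2 whole litters per isolation and grown as floating aggregates in defined medium with basic fibroblast growth factor, epidermal growth factor and leukemia inhibitory factor. The untreated group shares that medium, so both groups were held in growth factors. The sample labels and the treatment protocol give 70 mM for the ethanol group and the series design gives 75 mM, and the labels were followed. The ethanol in the medium was measured by gas chromatography up to day 5, and those measurements were not analysed here. The title of the series places the question in how ethanol shifts single neurospheres along paths of maturation.

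A neurosphere is a clump of neural stem and progenitor cells that divide in suspension, and the dorsal telencephalon they come from is the part of the fetal brain that builds the cerebral cortex. Growth factors hold such cells in a proliferative state, while a part of them starts to express genes of neurons or glia. Ethanol crosses into fetal tissue, and its exposure in this period is known to disturb the growth and differentiation of cortical progenitors.

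Each neurosphere was imaged, lysed whole and read by quantitative PCR on its own. A cycle number (Ct) is the amplification cycle at which product appears, so 1 cycle earlier stands for about 1 doubling more template where the primers double their product in each cycle. The assays carry codes and none of the 75 could be paired with a gene, so no gene, pathway or cell type marker can be named and the labelled tissue could not be checked against markers. Of 5025 values for the 67 neurospheres, 600 (11.9%) were missing and are treated below as undetected. Missing values made up 19.8% at 0 mM and 7.15% at 70 mM in run 1, and 14.3% and 8.0% in run 3. Each dose was applied within 1 culture set, and the labels do not tell culture vessels apart. The p-values below therefore weigh differences against the scatter of neurospheres only, and they understate the error that separate cultures would have. The 2 runs measured neurospheres of the same culture set and are not independent cultures either.

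The neurospheres given 70 mM ethanol yielded earlier product than the untreated ones in both runs. How early product appeared was summed up as a mean cycle number, taken over the 50 assays found in 95% or more of all 264 neurospheres. In run 1 it ran from 11.4 to 16.6 with a median of 14.5 at 0 mM, and from 8.36 to 12.1 with a median of 10.1 at 70 mM. In run 3 it ran from 9.22 to 17.4 with a median of 15.1 at 0 mM, and from 8.70 to 14.0 with a median of 13.0 at 70 mM. Every 70 mM neurosphere, 11 of 11 and 22 of 22, lay below the untreated median of its run, although the groups overlapped. In run 1, 9 of 11 untreated neurospheres were later than the latest 70 mM neurosphere, and in run 3 this held for 13 of 23.

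Mean cycle number was 14.1 ± 2.18 (SD, n = 34) without ethanol and 11.6 ± 1.99 (SD, n = 33) at 70 mM. Within run, the difference was -2.50 cycles (SE 0.505, 95% confidence interval -3.51 to -1.49), with a permutation p adjusted over 5 neurosphere readouts of 5e-05 in a two-sided test. It was -4.01 cycles in run 1 (SE 0.666, permutation p = 4e-05) and -1.76 cycles in run 3 (SE 0.652, permutation p = 0.00984). The size differed between the runs by -2.25 cycles (SE 1.05), and that contrast did not pass, with a permutation p adjusted over 3 readouts of 0.0594. In lysates of whole neurospheres, more cells and more RNA per cell cannot be told apart.

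The 70 mM neurospheres of run 3 fell into 2 separate ranges of mean cycle number: 5 neurospheres lay between 8.70 and 9.41 and 17 between 12.3 and 14.0, with none in between. The untreated neurospheres of the same run filled that gap, and the lowest of them reached 9.22.

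More assays were detected in 70 mM neurospheres. In run 1 the untreated neurospheres had 53 to 69 of 75 assays detected with a median of 59, and the 70 mM ones 47 to 74 with a median of 72. In run 3 the range was 55 to 72 with a median of 64 without ethanol, and 64 to 71 with a median of 69.5 at 70 mM. Fewer than 65 assays were found in 8 of 11 and 12 of 23 untreated neurospheres, against 1 of 11 and 1 of 22 at 70 mM. The means were 63.0 ± 6.01 (SD, n = 34) and 69.2 ± 4.51 (SD, n = 33), and the difference within run was 6.26 assays (SE 1.30, 95% confidence interval 3.67 to 8.85, two-sided permutation p adjusted over 5 readouts 5e-05). The difference was 9.45 assays in run 1 (SE 2.83, permutation p = 0.00459) and 4.70 in run 3 (SE 1.32, permutation p = 0.00083).

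One 70 mM neurosphere of run 1, at position A7, stood apart from its group. It had 47 assays detected where the other 10 had 71 to 74, and 24 of its 28 missing assays were detected in all 10 others. Over the 38 reference assays it did detect its mean cycle number was 10.7, and over the same 38 assays the others ran from 8.22 to 12.0 with a median of 9.79, 4 of the 10 being later. Without it the difference in detected assays was 6.93 and the difference in mean cycle number -2.49.

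Diameter did not differ detectably. In run 1 it ran from 27.7 to 74.7 µm with a median of 47.7 µm at 0 mM, and from 25.2 to 67.4 µm with a median of 43.9 µm at 70 mM. In run 3 it ran from 30.1 to 55.0 µm with a median of 39.4 µm, and from 16.6 to 78.5 µm with a median of 41.3 µm. The 2 doses overlapped almost wholly, and in run 3 both the smallest and the largest neurosphere were at 70 mM. The ratio of geometric means, 70 over 0 mM, was 0.925 (log2 difference -0.11, SE 0.10, 95% confidence interval -0.31 to 0.08, two-sided permutation p adjusted over 5 readouts 0.26). The labelled size classes held 5 small, 26 medium and 3 large neurospheres without ethanol and 10 small, 18 medium and 5 large ones at 70 mM. With log2 diameter as a covariate the difference in mean cycle number was -2.62.

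**Figure D1:**
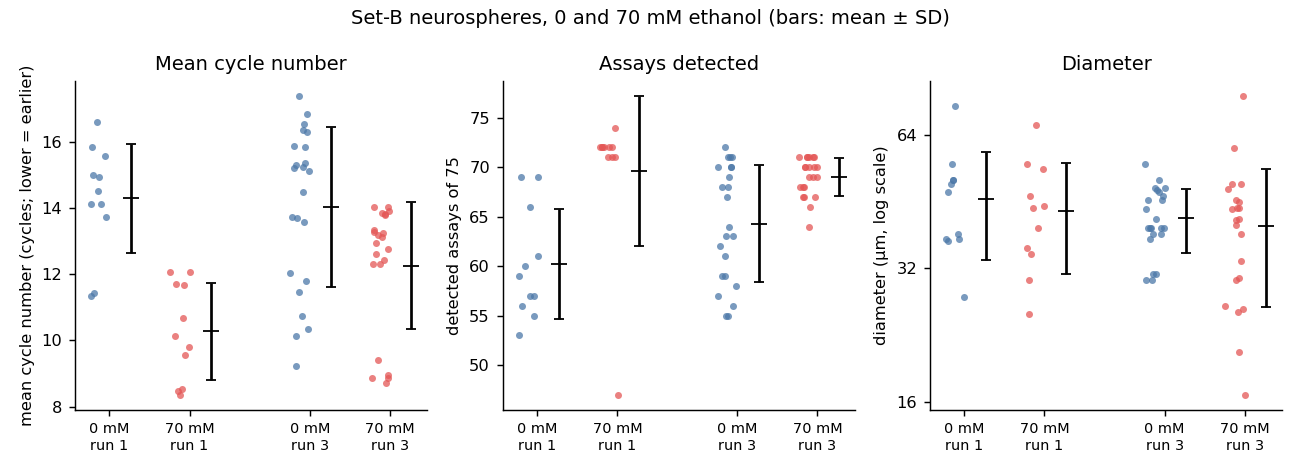
Mean cycle number over 50 assays (lower means more signal), assays detected of 75, and diameter in µm on a log scale, for each Set-B neurosphere by dose and run. Points are neurospheres and bars are mean ± SD; the 70 mM neurospheres of run 1 lie at 8.36 to 12.1 cycles against 11.4 to 16.6 without ethanol, while the diameters overlap.

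Diameter and mean cycle number were set against each other within each run and dose. Pearson's r was -0.36 in untreated run 1 (n = 11, permutation p = 0.28, Spearman's rho -0.31, permutation p = 0.36), 0.50 in run 1 at 70 mM (n = 11, permutation p = 0.12, rho 0.52, permutation p = 0.11) and -0.11 in untreated run 3 (n = 23, permutation p = 0.63, rho -0.15, permutation p = 0.48). None of the 3 passed after adjustment, with the lowest adjusted permutation p at 0.345 for r and 0.327 for rho. Without the 2 diameters farthest from the median, r was -0.28, 0.51 and -0.25 in the same order. In run 3 at 70 mM no r is given because the neurospheres fell into separate ranges of mean cycle number. That combination had been planned too and was left out after its values were seen, so a relation in it was not tested. There the 5 with the earliest product were 40.1 to 78.5 µm wide with a median of 49.8 µm, and the 17 others 16.6 to 49.8 µm with a median of 38.4 µm. The early 5 made up 4 of the 5 widest neurospheres of that run and dose, and the part of diameter in their early product was not tested.

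The scatter of diameters did not differ detectably over both runs. The mean distance of log2 diameter from the median of its group was larger by 0.13 (SE 0.07, permutation p = 0.048), which did not pass after adjustment over 5 readouts (adjusted permutation p = 0.080). In run 3 alone it was larger by 0.19, with an adjusted permutation p of 0.043, and in run 1 by 0.02. The scatter of mean cycle number was lower by 0.41 cycles at 70 mM (SE 0.36, adjusted permutation p = 0.26) and did not pass.

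To compare assays with each other, each neurosphere was centred on its own mean cycle number and the sign was turned. Centring takes out a shift that all assays share, but a relative level can still vary with mean cycle number. These relative levels are in log2 units, and a level of 0 is the average of the 50 reference assays in that neurosphere. Of 75 assays, 68 were detected often enough to be tested and 7 were left out. In the limma fit with run as covariate, 50 of 68 passed at an adjusted p under 0.05 (73.5%), with 26 higher at 70 mM (38.2%) and 24 lower (35.3%). With mean cycle number as a further covariate 38 of 68 passed, 15 higher and 23 lower. The median fold among the 50 was 2.87, from 1.42 to 28.8, and over all 68 it was 2.31. Rises of at least 1 log2 unit were seen in 19 of 68 assays and falls of that size in 21, while changes of at least 2 units were seen as 10 rises and 5 falls.

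In the fit over both runs, a lower relative level did not stand for later product. Without centring, all 68 assays had an earlier mean cycle at 70 mM, the median assay by 2.27 cycles, and 51 of 68 (75.0%) passed as higher and 0 as lower in limma. At an unadjusted p under 0.05, 52 passed, also without any lower. Each of the 24 assays with a lower relative level had an uncentred change above 0, and 12 of these passed as higher. All 26 assays with a higher relative level passed as higher without centring too. Within single runs, 65 of 68 uncentred changes were above 0 in run 1 and 62 in run 3. The split into rising and falling assays thus describes unequal gain across assays, and the direction of the 24 depends on the centring.

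The assays that passed in the 2 runs overlapped in large part. Run 1 alone had 40 of 68 assays past the limma threshold (58.8%), 19 higher and 21 lower, and run 3 alone had 44 (64.7%), 19 higher and 25 lower. Passing in both runs were 33 assays, 82.5% of the run 1 list and 75.0% of the run 3 list, and 30 of them had the same direction, 13 higher and 17 lower. Over all assays, 55 of 68 had the same direction in the 2 runs, and 48 of the 50 that passed in the combined fit did. The uncentred gain of the median assay was 4.06 cycles in run 1 and 1.42 in run 3.

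Groups that did not overlap at all were rare. In run 1, 3 of 66 assays with enough values (4.55%) had every 70 mM level above every untreated level, and in run 3 this held for 2 of 68 (2.94%). One assay separated in both runs among the neurospheres where it was detected, and it was picked out after its values were seen. It was detected in 10 of 11 neurospheres at each dose in run 1. In run 3 it was detected in 22 of 23 without ethanol and 22 of 22 at 70 mM. Its untreated levels ran from -6.04 to -2.45 in run 1 and from -8.24 to -2.02 in run 3. At 70 mM they ran from -1.23 to 0.45 and from -1.11 to 0.57. The medians at 70 mM, -0.37 and -0.29, were close to each other in the 2 runs, and its change was 4.50 (SE 0.34, limma adjusted p = 3.61e-18).

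Of the assays detected in at least 90% of the neurospheres and changed the same way in both runs, the 2 with the largest rise and the 2 with the largest fall in relative level are described one by one. A001 had the largest rise. In run 1 its relative level lay between -8.45 and -4.55 with a median of -7.20 without ethanol (detected in 10 of 11), and between 0.59 and 4.68 with a median of 2.04 at 70 mM (10 of 11). In run 3 it lay between -11.05 and -3.39 with a median of -5.96 (22 of 23), and between -5.49 and -2.44 with a median of -3.90 (22 of 22). The groups were far apart in run 1 and overlapped in run 3, where 6 of 22 neurospheres at 70 mM exceeded every untreated one.

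The change of A001 was 4.85 log2 units over both runs (SE 0.54, limma adjusted p = 4.41e-12), which is 28.8-fold. It was 9.40 in run 1 (SE 0.60) and 2.78 in run 3 (SE 0.48), and the difference of 6.62 between the runs passed (SE 0.82, limma adjusted p = 1.77e-09). The size of the combined value is therefore a mean of unlike runs. In raw cycles, the 10 run 1 neurospheres at 70 mM all read A001 between 7.03 and 8.13, a standard deviation of 0.288 cycles, while their untreated counterparts read it between 17.8 and 24.3. In run 3 the 70 mM neurospheres spread from 11.1 to 19.3 cycles. The early A001 product of run 1 was not confined to 70 mM of Set-B. Set-B neurospheres given 25 or 100 mM in that run had median cycles of 7.92 and 7.90, the latest reading 22.2 and 12.3. Untreated Set-A neurospheres of run 1 ran from 5.58 to 12.5 with a median of 7.78. With 25, 70 and 100 mM the Set-A medians were 8.12, 7.23 and 15.3. Why untreated neurospheres of Set-A and Set-B read A001 so differently in run 1 was not tested.

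A025 rose in both runs by like amounts. Its relative level in run 1 lay between -6.14 and -3.23 with a median of -4.33 without ethanol (10 of 11 detected), and between -1.74 and 2.99 with a median of 1.17 at 70 mM (11 of 11). In run 3 it lay between -8.40 and 0.31 with a median of -2.72, and between -0.08 and 1.98 with a median of 0.79. The groups were separate in run 1, and in run 3, 19 of 22 neurospheres at 70 mM exceeded every untreated one. The change was 4.76 (SE 0.40, limma adjusted p = 1.13e-16), 27.1-fold, with 5.61 in run 1 and 4.37 in run 3, and the runs did not differ detectably (difference 1.24, limma adjusted p = 0.34). The median raw cycle moved from 18.6 to 9.04 in run 1 and from 18.3 to 12.4 in run 3.

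A065 had the largest fall in relative level. In run 1 it lay between -1.91 and 2.85 with a median of 1.86 without ethanol, and between -2.98 and -0.22 with a median of -1.67 at 70 mM. In run 3 it lay between -0.74 and 2.69 with a median of 1.47, and between -2.08 and 0.62 with a median of -0.53. The groups overlapped in both runs, and 5 of 11 and 8 of 22 neurospheres at 70 mM were below every untreated one. The change was -2.13 (SE 0.27, limma adjusted p = 1.23e-10), with -2.85 in run 1 and -1.78 in run 3. In raw cycles A065 hardly moved, with medians of 12.9 and 12.2 in run 1 and 13.3 and 13.4 in run 3 at 0 and 70 mM. Its uncentred change was 0.37 (SE 0.41, limma adjusted p = 0.38), opposite in sign.

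A017 fell by nearly the same amount. Its relative level in run 1 lay between 0.38 and 3.79 with a median of 2.98 without ethanol, and between -2.22 and 1.01 with a median of -0.07 at 70 mM. In run 3 it lay between 1.62 and 5.18 with a median of 3.18, and between 0.29 and 2.29 with a median of 1.54. Here 7 of 11 and 13 of 22 neurospheres at 70 mM were below every untreated one. The change was -2.12 (SE 0.23, limma adjusted p = 1.66e-12), with -2.81 in run 1 and -1.79 in run 3. The median raw cycle went from 11.7 to 9.93 in run 1 and was 11.3 at both doses in run 3, and the uncentred change was opposite in sign at 0.38 (SE 0.44, limma adjusted p = 0.40).

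**Figure D2:**
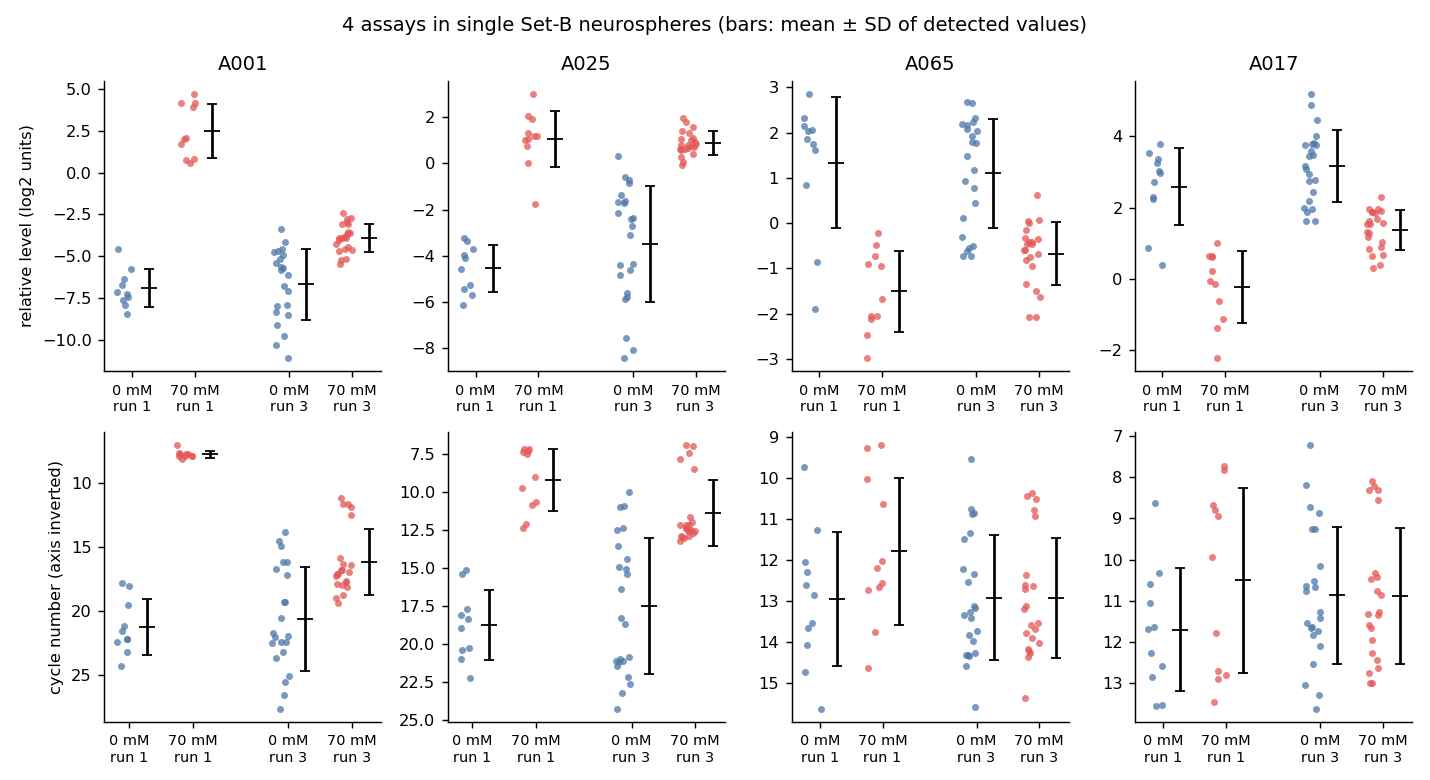
Relative level (upper panels, log2 units, centred per neurosphere) and raw cycle number (lower panels, axis inverted so that more template is up) of A001, A025, A065 and A017 in each Set-B neurosphere where the assay was detected. Points are neurospheres by dose and run and bars are mean ± SD; A001 and A025 are higher at 70 mM on both scales, while A065 and A017 are lower only after centring.

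The other ethanol doses of Set-B share the untreated neurospheres, so their levels are set beside these without a test. In order of dose, 25, 70 and 100 mM, the median relative levels of A001 were 4.86, 2.04 and 1.74 in run 1, and -6.35, -3.90 and -3.19 in run 3. A025 had medians of -1.59, 1.17 and 0.59 in run 1 and -1.57, 0.79 and 0.53 in run 3. A065 had -0.08, -1.67 and -1.18 in run 1 and 0.16, -0.53 and -1.17 in run 3, and A017 had 1.63, -0.07 and 0.47 in run 1 and 2.45, 1.54 and 1.24 in run 3. Among the ethanol doses, A025 had its highest median at 70 mM in both runs, and A065 and A017 had their lowest at 70 mM in run 1 and at 100 mM in run 3.

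The sizes of change differed between the runs for a minority of assays. The contrast between runs passed for 9 of 68 (13.2%, limma), and 4 of them moved the same way in both runs with the larger change in run 1. The other 5 had opposite signs, 4 lower in run 1 and higher in run 3. Those 4 changed by -5.06 to -1.54 in run 1 and by 0.28 to 2.01 in run 3. Without centring their run 1 changes ran from -1.05 to 2.51, where a value below 0 means later product at 70 mM. Each of the 5 was found in at least 20 of 22 neurospheres of run 1 and 43 of 45 of run 3, and 1 of the 5 passed in the combined fit. The cause of the opposite signs was not tested.

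**Figure D3:**
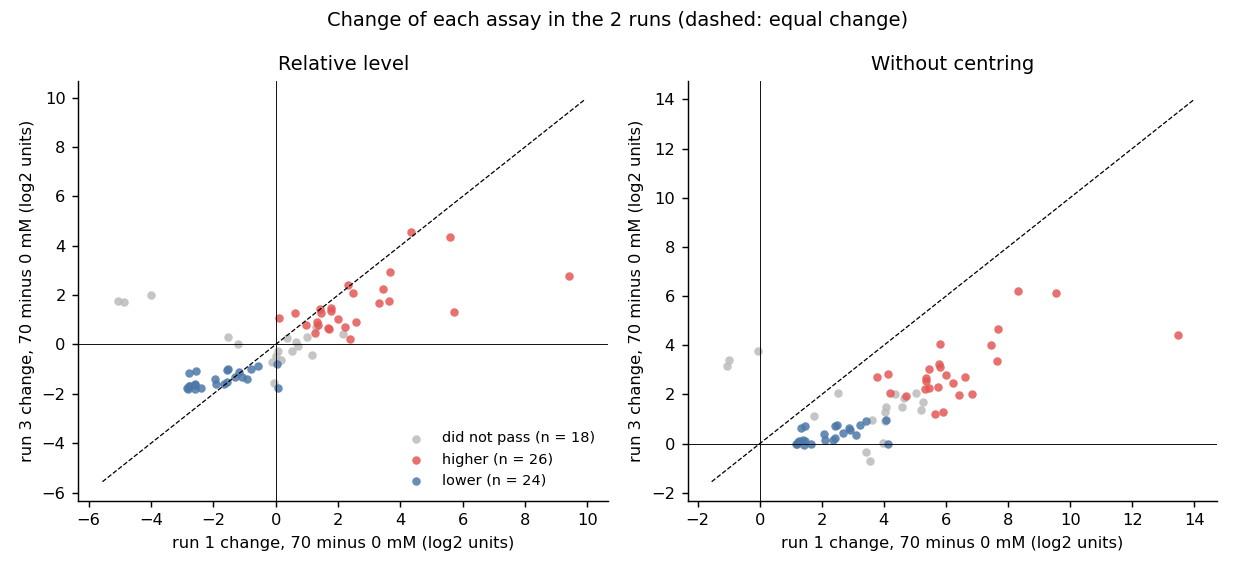
Change of each of 68 assays, 70 minus 0 mM, in run 3 (vertical) against run 1 (horizontal), as relative level on the left and without centring on the right, in log2 units. Colour gives the call on the relative level over both runs and the dashed line marks equal change; 55 of 68 assays have the same direction in both runs, and without centring 65 in run 1 and 62 in run 3 are above 0.

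Assays that amplify early in other untreated neurospheres had the lowest median change. The 68 assays were split into 3 classes by their mean cycle number in untreated Set-A neurospheres of run 2, which are no part of the comparison. In the 23 early assays (7.45 to 13.9 cycles) 7 rose and 14 fell in relative level, with a median change of -0.94. In the 22 middle assays (14.3 to 16.4 cycles) 9 rose and 6 fell, with a median of 0.21, and in the 23 late assays (16.7 to 21.3 cycles) 10 rose and 4 fell, with a median of 0.81. Over all 68, 26 rose (38.2%) and 24 fell (35.3%), and the median was 0.04. Without centring the class medians were 1.56, 2.58 and 2.05, all above 0. The early assays are the abundant transcripts or the efficient primers, which cycle numbers do not separate.

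**Figure D4:**
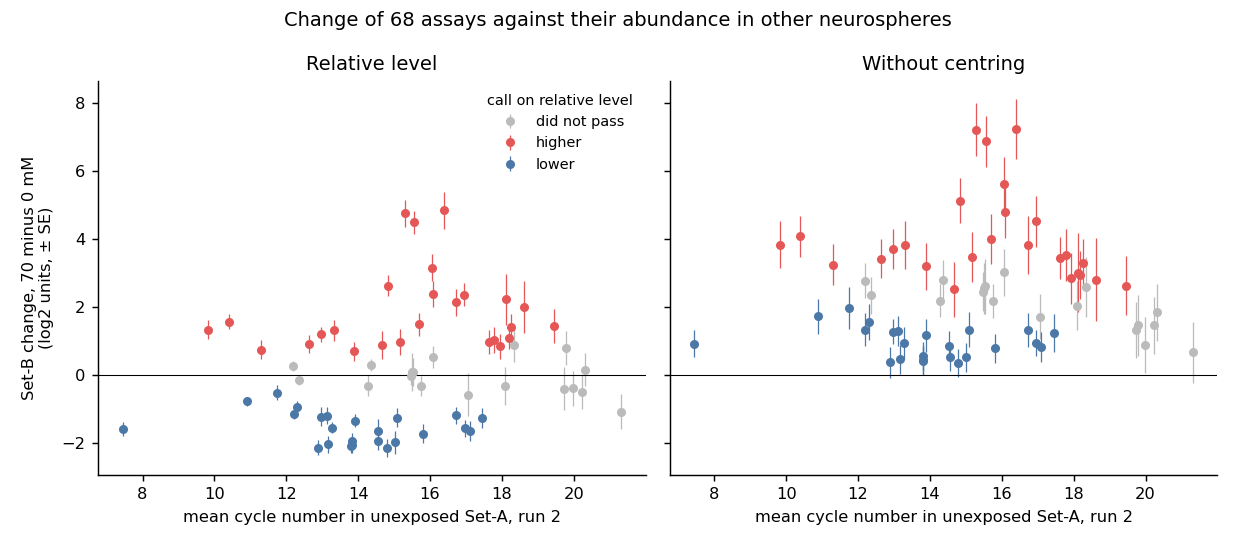
Change of each of 68 assays in Set-B, 70 minus 0 mM in log2 units, against its mean cycle number in untreated Set-A neurospheres of run 2 (low is early), as relative level on the left and without centring on the right. Points are assays with ± SE. Among the early assays 14 of 23 fell in relative level, against 24 of all 68 (35.3%), and all points on the right are above 0.

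Detection moved upward with the overall signal. Of 75 assays, 33 were detected in all 67 neurospheres, 18 in more than 95% but not all, and 24 were tested. By the exact conditional Mantel-Haenszel test within run, 19 of 24 changed (79.2%, adjusted p under 0.05), all of them found in more neurospheres at 70 mM. In 15 of the 19 the share was higher in each run, but run 1 alone gave 5 calls and run 3 alone 2. Among the assays with the lowest p, picked out after their values were seen, 1 went from 17 of 34 to 32 of 33 neurospheres, 1 from 8 of 34 to 26 of 33 and 1 from 19 of 34 to 33 of 33, each with an exact test adjusted p of 7.88e-05. A single assay had a clearly lower share at 70 mM, 13 of 33 against 20 of 34, and it did not pass (exact test adjusted p = 0.075).

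Some of these shares were set by the run. Of the 19, 3 assays were detected in no neurosphere of run 3 at either dose, and 1 in none of run 1, so their change rests on the other run. In those 3, detection in run 1 went from 4 to 10, from 1 to 10 and from 1 to 7 of 11 neurospheres. Without the neurosphere at position A7, 21 of 23 assays tested passed. Of the 24 tested, 17 were also in the fit of relative levels, where 10 were higher and 0 lower. Over all 68 assays of that fit, 26 were higher (38.2%) and 24 lower (35.3%). The levels of these 17 rest only on the neurospheres where the assay was detected.

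Neurospheres varied less at 70 mM in the relative levels of most assays. The standard deviation was lower at 70 mM in 61 of 68 assays, and its median over assays was 1.54 without ethanol and 0.739 with it. By limma on the distance from the median of run and dose, the spread of 39 of 68 assays changed (57.4%), narrower in 38 and wider in 1. Without centring 14 assays changed and with missing values set to 30 cycles 20 did, of which 14 and 19 were narrower. The steepest narrowing, in an assay picked out after its values were seen, was from a standard deviation of 2.28 to 0.469 (limma adjusted p = 5.55e-05). The 1 assay that widened went from 0.483 to 1.25 (limma adjusted p = 0.00242).

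A narrower spread was seen with both directions of level. Of the 38 narrower assays, 16 were higher and 14 lower in relative level. The split over all 68 assays was alike, with 26 higher (38.2%) and 24 lower (35.3%). Pooled over the runs, A025 narrowed from a standard deviation of 2.19 to 0.807 (limma adjusted p = 0.000388). A001 narrowed from 1.90 to 1.13 (limma adjusted p = 0.043) and A065 from 1.29 to 0.765 (limma adjusted p = 0.043). In run 1 the standard deviation instead rose, for A025 from 1.03 to 1.21 and for A001 from 1.14 to 1.60. In run 3 it fell, for A025 from 2.51 to 0.516 and for A001 from 2.14 to 0.847. That of A065 fell in both runs. A017 had 1.03 and 0.738 and did not pass (limma adjusted p = 0.14). By class, 10 of 23 early assays narrowed and 1 widened, 21 of 22 middle assays narrowed and 7 of 23 late ones did.

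More changes in spread passed in run 3 alone than in run 1 alone. The median change in distance over the 68 assays was -0.32 in run 1 and -0.50 in run 3. With 11 neurospheres per dose, run 1 alone gave 3 changes in spread, 1 wider and 2 narrower, while run 3 alone gave 45, all narrower. Product was also later without ethanol, at a mean cycle number of 14.1 against 11.6, and the part of this in the spread was not tested. Without the neurosphere at position A7, 48 assays changed in spread, 47 of them narrower.

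**Figure D5:**
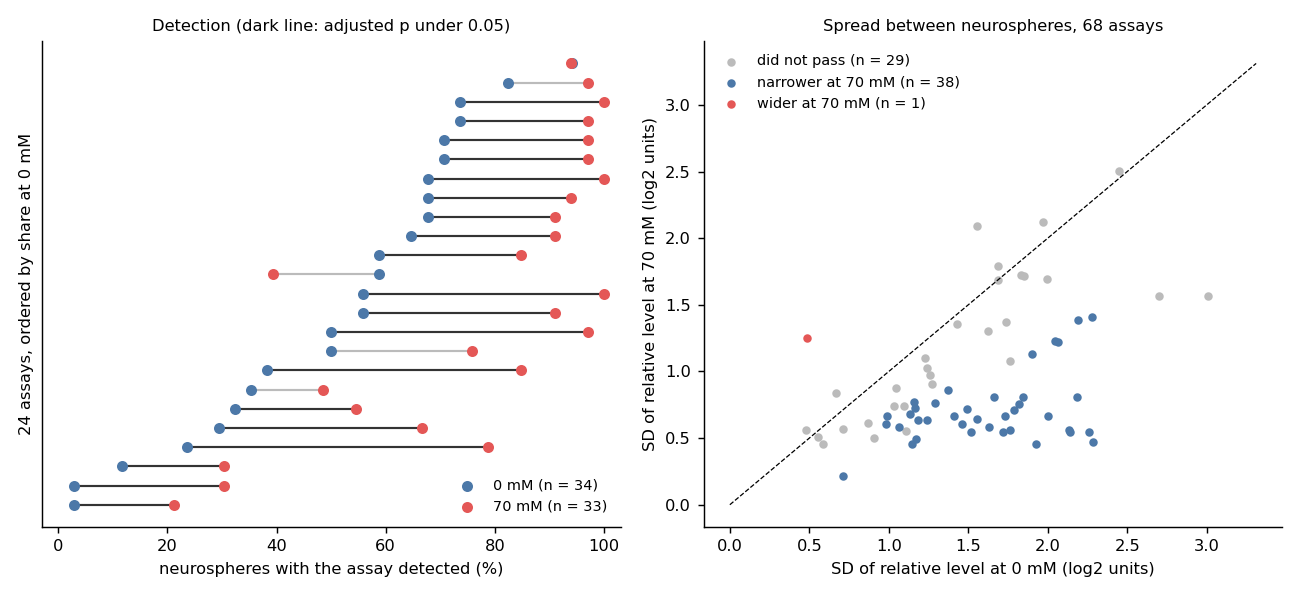
Left, percent of neurospheres with the assay detected at 0 mM and 70 mM for the 24 assays tested, joined by a dark line where the adjusted p was under 0.05. Right, standard deviation of the relative level at 70 mM against 0 mM for 68 assays in log2 units; most points lie below the dashed line of equal spread, 38 as narrower and 1 as wider.

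The other culture set, given the same doses, had no earlier product at 70 mM. In Set-A the mean cycle number at 70 mM was later than at 0 mM by 0.771 cycles (SE 0.627, 34 and 33 neurospheres), against -2.50 in Set-B, and the difference between the sets was not tested for this readout. The change in relative level differed between the sets for 31 of 68 assays (45.6%, limma). Of these, 26 had passed in Set-B, where 50 of all 68 did (73.5%). Of the 31, 16 were more positive in Set-B and 15 more negative. That split depends on the centring: centred on the median of the reference assays, 22 assays differed, all more positive in Set-B, and without centring 58 did, likewise all more positive. Set-A was measured in runs 1 and 2 and Set-B in runs 1 and 3, so only run 1 holds both sets. In run 1 alone, 27 of 68 assays differed between the sets in limma, 15 more positive and 12 more negative in Set-B. In Set-A alone 17 of 68 assays passed (25.0%), 9 higher and 8 lower. Passing in both sets were 14 assays, and 11 of these had the same direction. The 14 made up 28.0% of the Set-B list, where 25.0% of all 68 assays passed in Set-A. They made up 82.4% of the Set-A list, where 73.5% of all 68 passed in Set-B. Over all assays, 51 of 68 had the same direction in both sets.

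Of the 4 assays followed, A025 rose and A017 fell in relative level in both sets. A025 changed by 2.18 in Set-A (SE 0.31, limma adjusted p = 4.36e-08), which was less than in Set-B by 2.58 (SE 0.51, limma adjusted p = 1.76e-05). A017 changed by -1.94 in Set-A (SE 0.65, limma adjusted p = 0.019), and its difference between the sets of -0.18 did not pass (limma adjusted p = 0.83), though without centring it was 3.09 (limma adjusted p = 0.00322). A001 changed by -0.33 in Set-A (SE 0.49, limma adjusted p = 0.67), a difference of 5.18 between the sets (SE 0.74, limma adjusted p = 3.56e-09). A065 changed by -0.50 there without passing (limma adjusted p = 0.35), a difference of -1.63 between the sets (SE 0.47, limma adjusted p = 0.00329). That difference did not pass with median centring (-0.91, limma adjusted p = 0.13) and turned to 1.70 without centring (limma adjusted p = 0.036). The assay that separated in both runs of Set-B rose in Set-A by 1.05 (SE 0.28, limma adjusted p = 0.00498), and its change also differed between the sets (limma adjusted p = 1.35e-10). With 1 culture set on each side, the sets and the cultures they came from cannot be told apart, and outside run 1 the run differed too.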

How the data were processed

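Per the labels' protocols, single neurospheres were lysed without RNA extraction, reverse transcribed, preamplified and read on BioMark HD arrays with EvaGreen over 30 cycles in 3 runs of 88. Cycle numbers, another scale than counts, were deposited as not normalized, computed with Fluidigm's analysis software per the labels' protocols. They ran from 2.89 to 27.6 among the 67 neurospheres. No source used here states primer efficiency or why values are missing. A prefix in the sample titles was read as the run. The series design names 96 genes and 400 neurospheres, and those beyond the 75 assays and 264 neurospheres were not analysed here. Neurospheres are samples of 1 culture set.

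Relative level is the mean cycle number over 50 reference assays minus the cycle number. Assays detected in at least 50% of the 67 neurospheres and at least 3 times in each dose of 1 run entered a limma fit (version 3.58.1, R 4.3.3) that had run as covariate and Benjamini-Hochberg adjustment at 0.05. Spread was tested with limma on the absolute deviation from the median of run and dose. Detection was tested in assays found in 5% to 95% of neurospheres. Values per neurosphere were tested with 100000 resamples, permuting dose within run, where 1e-05 is the smallest p possible. Python 3.11.15 with scipy 1.17.1 and numpy 2.4.6 was used. The limma fit of levels was checked by permuting dose labels within run and adding known changes to the centred levels. The centring and the other tests were not checked in this way. Alternatives were centring, missing values, filters, covariates, weights, single runs and a replicate block. Named assays were the 2 largest rises and 2 largest falls at an adjusted p under 0.05, detected in at least 90% and of the same direction in both runs. Diameter was correlated with mean cycle number in 3 of the 4 combinations of run and dose. The neurospheres, assays and tests were chosen with earlier results of these data known.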

Additional observations from a re-analysis of the deposited data

Results flagged for a closer look

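These results are listed because the same contrast of 70 against 0 mM gave different changes in 2 runs or in 2 culture sets by a limma test of the difference itself. The change in relative level differed between run 1 and run 3 of Set-B for 9 of 68 assays, and between Set-B and Set-A for 31 of 68.

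The change of A001 was larger in run 1 than in run 3 by 6.62 log2 units and larger in Set-B than in Set-A by 5.18. The change of A025 was larger in Set-B than in Set-A by 2.58, and that of A065 was more negative in Set-B by -1.63, a difference that was -0.91 and did not pass with median centring (limma adjusted p = 0.13) and was 1.70 without centring. With median centring the culture sets differed for 22 assays, all more positive in Set-B. The limma adjusted p of each is given with the assay's other values. All groups of neurospheres held 11 or more, so no single neurosphere was examined for its distance from its group by a formal criterion.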

How the results depend on the processing

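Of 125 values under alternative settings, 112 stayed close to the reported ones: a tested value kept its direction and its side of the threshold, and a count was within 1.5 times, which says nothing of the directions inside it. The number of assays past the limma threshold in relative level was 50 and ran from 38 to 55 over 16 alternatives. Relative to that, 46 of the 50 kept their call and direction when centred on the median, 45 with missing values set to 30 cycles, 36 in a fit that held mean cycle number as covariate, and 26 without normalization. The split of 26 higher and 24 lower moved to 33 and 20 with median centring, 51 and 0 without normalization, 15 and 23 with that covariate, 32 and 23 with the 33 assays detected in all 67 as reference, and 17 and 24 among assays detected in at least 90%. Without normalization the median of all assays moved from 0.04 to 2.27, A065 turned to 0.371 and A017 to 0.379, 5 assays differed between runs, 58 between culture sets (all more positive in Set-B) and 14 in spread. With missing values set to 30 cycles, 5 assays differed between runs and 20 in spread. In run 1 alone, 3 assays changed in spread and 5 in detection, and the spread of mean cycle number was higher at 70 mM by 0.0285. In run 3 alone 2 assays changed in detection, and the spread of log2 diameter passed at 0.188, as it did at 0.145 when taken around the mean. With median centring, the 31 assays that differed between culture sets, 16 more positive and 15 more negative in Set-B, became 22 and 0. The cause of these changes was not tested, and a single run also held fewer neurospheres than both together.

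The position label in the titles was shared by 33 pairs of 0 and 70 mM neurospheres, whose deviations correlated from -0.64 to 0.79 (median 0.14), with 17 pairs over 0.1, and 4 untreated neurospheres were best matched by their own position, so the label was not taken as pairing. With it as a replicate block, 48 assays passed, 24 in each direction and 47 of them in common with the fit without it, the mean cycle number differed by -2.52 and log2 diameter by -0.11. Leaving out the neurosphere at position A7 was chosen after seeing the data; 52 assays then passed in level, 26 in each direction. A cycle number has no molecule count behind it, so precision rests on 11 to 23 neurospheres per run and dose, and a missing value means only that no product was recorded.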
